A study of Mus musculus with 5 samples.

Results

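Il10ra, Il10rb and Il10, the genes for the ligand-binding chain of the IL-10 receptor, its second chain and IL-10 itself, were examined for RNA polymerase II (Pol II) occupancy in regulatory T (Treg) cells with and without the histone methyltransferase Setd2. Il10ra was selected on its measured KO against Ctrl counts, which were higher in KO, and Il10rb and Il10 because they belong to the same axis, so the comparison of Il10ra between genotypes is a description and carries no test here. A peak was counted for a gene if its midpoint lay in the gene body or in the 3 kb upstream, which gave 6 peaks for Il10ra, 7 for Il10rb and 2 for Il10. These 3 genes and 15 peaks are part of 12876 genes with a peak and 56615 merged peaks.

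Pol II was profiled by CUT&Tag, in which a transposase tethered to an antibody cuts next to the bound protein. Treg cells were sorted as CD3+CD4+YFP+ cells from the spleens of 8-week-old C57BL/6 mice of both sexes that had received 1 μg IL-2 complexed with 5 μg anti-IL-2 antibody (IL-2c) for 3 days, with cells taken 48 hours later. Ctrl mice had the genotype Foxp3CreSetd2flox/+, with Cre and 1 floxed Setd2 allele, and KO mice had the genotype Foxp3CreSetd2flox/flox. Both groups therefore carried the Cre, which the Treg gene Foxp3 drives, both received IL-2c, and the control was heterozygous and not wild type. There were 2 Ctrl and 2 KO libraries of 80000 nuclei each. Cells of 2 mice were pooled before sorting, and the methods call each library a biological replicate. They do not say whether the libraries of a genotype came from separate pools, so p-values measure the spread between these libraries, which may be partly technical. An IgG library was not analysed here.

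IL-10 binds the IL-10Rα chain, encoded by Il10ra, which recruits the widely expressed IL-10Rβ chain, encoded by Il10rb and shared with the receptors of IL-22 and the type III interferons. The kinases JAK1 and TYK2, bound to the chains, then phosphorylate the transcription factor STAT3. Treg cells both secrete IL-10, most of all at mucosal surfaces, and respond to it, and loss of either chain or of the cytokine causes colitis in mice.

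Total counts in peaks ranged from 4489646 to 13351007 per library, and in both genotypes library 1 was the deeper. The targeted gene did not separate the groups: Setd2 had 512 and 518 normalized counts in Ctrl and 455 and 569 in KO (log2 fold change of KO over Ctrl -0.02 ± 0.19, SE). Deletion of a floxed part need not alter Pol II on the rest of the gene, which was not tested here. All 4 Treg markers (Foxp3, Il2ra, Ikzf2 and Ctla4) and all 3 T cell markers had peaks, with summed normalized counts of 25269 to 30000 in Ctrl and 26852 to 30959 in KO for the Treg list. Within these lists, Ctla4 (6859 and 5724 in Ctrl, 7504 and 7032 in KO) and Cd3e (485 and 507 in Ctrl, 529 and 578 in KO) were separated upward, with log2 fold changes of 0.21 ± 0.13 and 0.16 ± 0.18 (SE) and adjusted DESeq2 p-values of 1.00, and their part in the values below was not tested. Neither of 2 CD8 T cell markers and none of 3 NK cell markers had a peak, including the defining genes Cd8a and Ncr1. Of 3 B cell markers only Cd79a had peaks (82.1 and 86.3 counts in Ctrl, 67.3 and 123 in KO), and Ms4a1 and Pax5 had none. Of 5 myeloid markers only Cd68, whose peak also belonged to another gene, was covered (1233 and 1311 counts in Ctrl, 1097 and 950 in KO), and Csf1r, Lyz2, Itgam and Adgre1 had none. Cd68 was separated downward (log2 fold change -0.31 ± 0.15, SE; DESeq2 p-value 0.0386, adjusted 1.00), and the part of myeloid cells in the values below was not tested. The whole Treg population was profiled, so a change per cell and a change in the share of cells using a gene cannot be told apart.

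Of the peaks described below, a pair of short ones outside exons is shown first. The first is the central part of the Il10ra peak with the highest fold change, inside an intron (chr9:45257343-45257642, GRCm38, minus strand, which is the strand of the gene). The second is the only Il10 peak wholly outside the gene body, in the upstream region (chr1:131017127-131017395, GRCm38, plus strand). Capitals mark matches to 3 motifs, searched on both strands: TTCNNNGAA for STAT factors, TGANTCA for AP-1 and TGTTTAC for forkhead factors.
Il10ra intron: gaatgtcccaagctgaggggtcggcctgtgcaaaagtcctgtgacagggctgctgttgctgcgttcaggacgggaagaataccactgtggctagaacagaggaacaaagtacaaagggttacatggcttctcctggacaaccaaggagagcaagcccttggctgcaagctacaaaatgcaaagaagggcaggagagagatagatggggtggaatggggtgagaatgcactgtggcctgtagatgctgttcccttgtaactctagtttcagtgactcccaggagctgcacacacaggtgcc
Il10 upstream: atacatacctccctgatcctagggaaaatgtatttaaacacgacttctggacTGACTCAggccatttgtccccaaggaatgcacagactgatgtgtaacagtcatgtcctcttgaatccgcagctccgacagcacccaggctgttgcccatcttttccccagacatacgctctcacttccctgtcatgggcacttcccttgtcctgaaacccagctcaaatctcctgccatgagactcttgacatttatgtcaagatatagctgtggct
The Il10ra window of 300 bases held none of the 3 motifs. In windows of that length centred on all 56615 peaks, 7.11% held the STAT motif, 8.81% the AP-1 motif and 3.59% the forkhead motif. The Il10 peak of 269 bases held 1 AP-1 match, at its bases 53 to 59, a motif found in 7.95% of windows of the same length. A match describes letters only and not binding. The G and C content was 53.0% in the Il10ra window and 48.7% in the Il10 peak.

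Among the 3 genes, only Il10ra had both KO libraries above both Ctrl libraries. Il10ra (ENSMUSG00000032089.16) lies on the minus strand of chromosome 9 from 45253837 to 45269149 (GRCm38). Counts scaled for sequencing depth (normalized counts, by the DESeq2 size factors), summed over its 6 peaks, were 1437 in Ctrl 1 and 1260 in Ctrl 2. They were 2282 in KO 1 and 2061 in KO 2. The lowest KO library thus lay well above the highest Ctrl library, and KO was 1.59 times Ctrl between the libraries numbered 1 and 1.64 times between those numbered 2. The group means were 1349 ± 126 and 2172 ± 156 (SD, n = 2), a log2 fold change of 0.69 ± 0.14 (SE), with no test because Il10ra was chosen for this difference. Across all genes, 17.4% had both KO libraries above both Ctrl libraries, and with 2 against 2 libraries an exact permutation test cannot give a p below 0.333. None of the Il10ra peaks belonged to another gene.

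**Figure D1:**
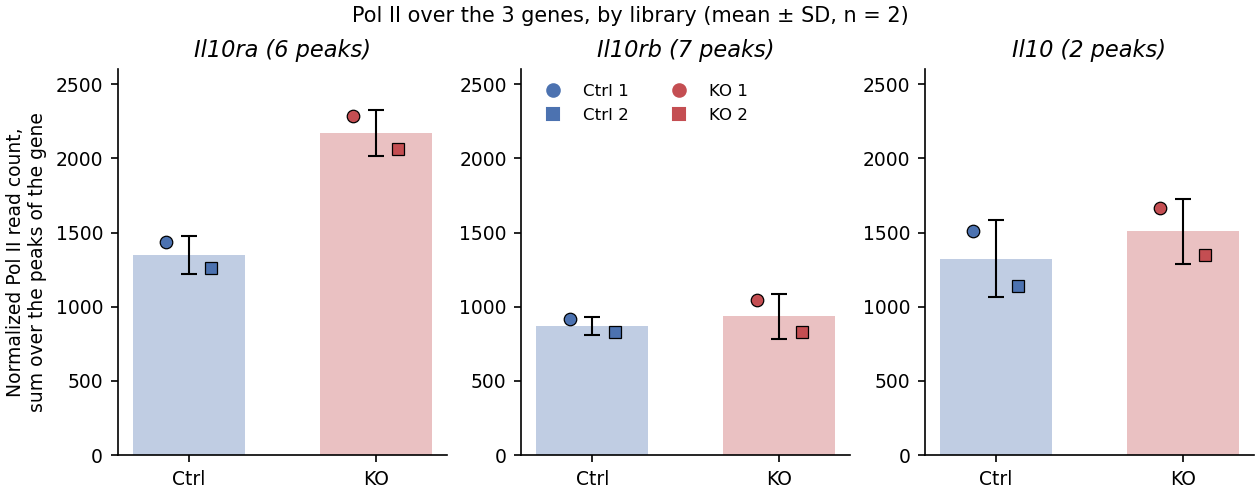
Normalized Pol II read counts (vertical axis) summed over the peaks of Il10ra, Il10rb and Il10 in Ctrl and KO. Bars are means, whiskers are SD (n = 2) and points are libraries. The KO libraries of Il10ra, at 2282 and 2061, lie above the Ctrl libraries at 1437 and 1260, while Ctrl and KO points overlap for Il10rb and Il10.

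The choice of Il10ra rests on the fit across all genes, so its call there is no finding. In that fit, 0.0155% of genes were called higher in KO at an adjusted DESeq2 p-value under 0.05, Il10ra among them, and 0.101% were called in either direction. Il10ra was not called by edgeR, which called 0 genes, or with any 1 library left out. Outside the threshold, the next genes higher in KO by p-value were Cyp46a1, with 114 and 111 counts in Ctrl and 198 and 256 in KO (log2 fold change 1.00 ± 0.28, SE), and Kctd12, with 645 and 523 in Ctrl and 1010 and 817 in KO (0.65 ± 0.18). These values describe where the choice was made and are not tested again.

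Promoter and gene body peaks of Il10ra were then examined separately. Promoter peaks were those with a midpoint within 3 kb of a start site. The 3 promoter peaks summed to 927 and 812 normalized counts in Ctrl and 1447 and 1290 in KO (log2 fold change 0.65 ± 0.16, SE). The 3 body peaks summed to 524 and 443 in Ctrl and 845 and 753 in KO (log2 fold change 0.72 ± 0.19, SE). Both parts were separated between the genotypes, and the values of the 2 parts lay within 1 SE of each other. Most promoter reads came from the peak over the start, which runs into the gene and touches 5 exons. The promoter part therefore also holds gene body signal, and the 2 peaks wholly upstream of the gene were not separated. Promoter peaks held 65.4% of the raw Il10ra counts in Ctrl 1 (95% Wilson interval 63.3 to 67.5%) and 63.9% in Ctrl 2 (60.7 to 66.9%). They held 64.1% in KO 1 (62.5 to 65.6%) and 61.7% in KO 2 (58.9 to 64.4%), so the share was similar in all 4 libraries at this depth, where intervals cover counting error only. Under a promoter window of 1 kb no Il10ra peak was a promoter peak. The peak over the start is 5685 bp long, and its midpoint lies 2182 bp from the nearest start site.

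Along the gene, 4 of the 6 peaks had both KO libraries above both Ctrl libraries, where 16.2% of all peaks did. These peaks make up the sum on which Il10ra was chosen, so the count is a description and no test. The 2 peaks not separated were those upstream of the gene. The first, 2985 bp from the start (chr9:45271607-45272661), had 97.0 and 99.2 normalized counts in Ctrl and 116 and 85.2 in KO. The second, 1319 bp from the start (chr9:45270264-45270673), had 40.3 and 53.7 in Ctrl and 47.5 and 68.1 in KO. In both, the Ctrl and KO libraries overlapped, with log2 fold changes of 0.06 ± 0.35 and 0.29 ± 0.46 (SE).

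The third peak, over the start site and 5 exons (chr9:45264122-45269806), held the largest part of the Il10ra counts. It had 826 and 643 normalized counts in Ctrl and 1307 and 1099 in KO (log2 fold change 0.71 ± 0.21, SE). The fourth, within an intron (chr9:45262771-45263787), had 139 and 124 in Ctrl and 183 and 191 in KO (0.50 ± 0.29). Both peaks were separated between the genotypes, the fourth by the smaller margin.

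The fifth peak (chr9:45258506-45262336) covered 119 bp of exon and intronic sequence around it, and had 341 and 293 normalized counts in Ctrl and 564 and 492 in KO (log2 fold change 0.74 ± 0.22, SE). The sixth (chr9:45257282-45257702), the intronic peak whose sequence is shown, had 28.8 and 33.1 in Ctrl and 77.8 and 93.7 in KO. Its log2 fold change of 1.47 ± 0.44 (SE) was the highest of the 6 and also rested on the fewest Ctrl reads, 40 in Ctrl 1 and 24 in Ctrl 2. In raw counts it made up 1.95% and 2.65% of the Il10ra reads in Ctrl and 3.39% and 4.62% in KO. A seventh peak (chr9:45251060-45256239) covered the last exon but had its midpoint 188 bp past the 3′ end of the gene, just outside the rule. It had 704 and 705 normalized counts in Ctrl and 1006 and 1064 in KO (0.55 ± 0.19), so the KO libraries were also the higher in the peak over the 3′ end. When peaks were assigned by any base of overlap, which adds this peak, the log2 fold change of Il10ra was 0.65.

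**Figure D2:**
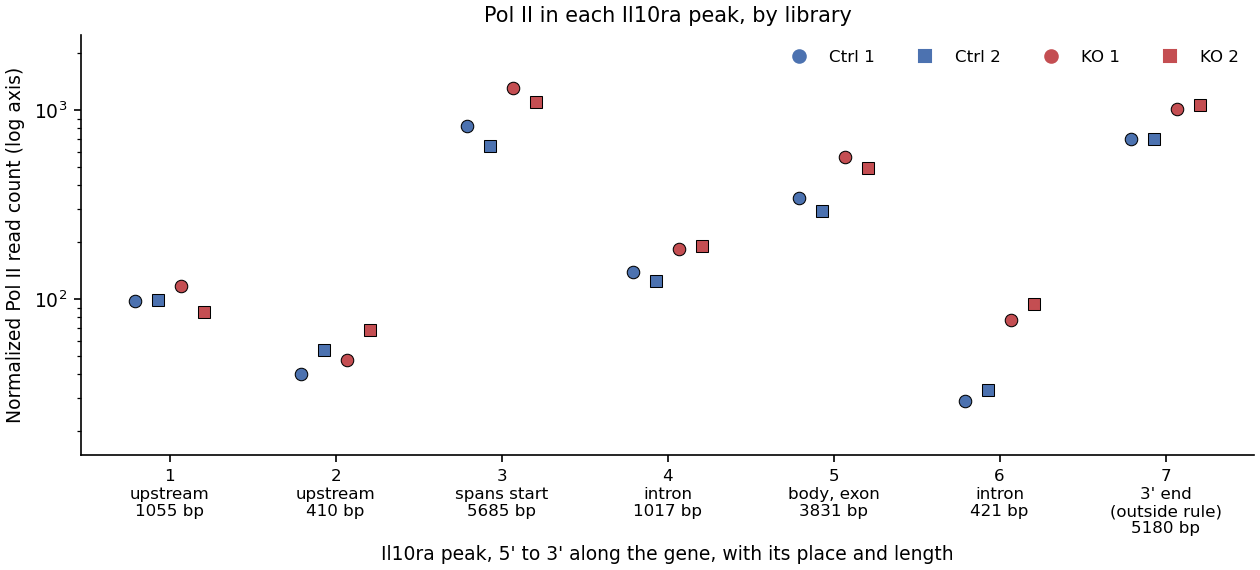
Normalized Pol II read counts (vertical log axis) in each Il10ra peak, ordered from upstream to the 3′ end (horizontal axis), with 1 point per library. The KO points lie above the Ctrl points in peaks 3 to 7 and mix with them in the upstream peaks 1 and 2, and peak 7 was not counted for the gene.

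The surroundings of Il10ra were examined up to 50 kb on either side, where 15 further peaks lay. On the upstream side, 6 peaks belonged to no gene, of which 2 had both KO libraries above both Ctrl libraries, with log2 fold changes from -0.26 to 0.62 and a median of 0.12 (16.2% of all peaks were separated upward). On the downstream side, 8 peaks belonged to BC049352, which lies on the opposite strand and ends 3817 bp from the 3′ end of Il10ra. Of these 8, 7 had both KO libraries above both Ctrl libraries, against the same 16.2%. The 8 are neighbours in 1 gene, read in the same 4 libraries, so they are not independent and the count is a description. Their median log2 fold change was 0.50, and 1 had an unadjusted DESeq2 p-value under 0.05. Summed over the gene, BC049352 had 611 and 618 normalized counts in Ctrl and 775 and 898 in KO (0.44 ± 0.16, SE). Its DESeq2 p-value was 0.00736 before and 1.00 after adjustment over all genes. The remaining downstream peak, in no gene, lay between Il10ra and BC049352 (chr9:45250300-45250594), and its Ctrl and KO libraries overlapped. It had 42.4 and 70.3 normalized counts in Ctrl and 61.8 and 51.1 in KO (0.04 ± 0.46, SE). CUT&Tag reads carry no strand, so Pol II moving past the end of Il10ra and Pol II on BC049352 cannot be told apart in the BC049352 peaks.

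**Figure D3:**
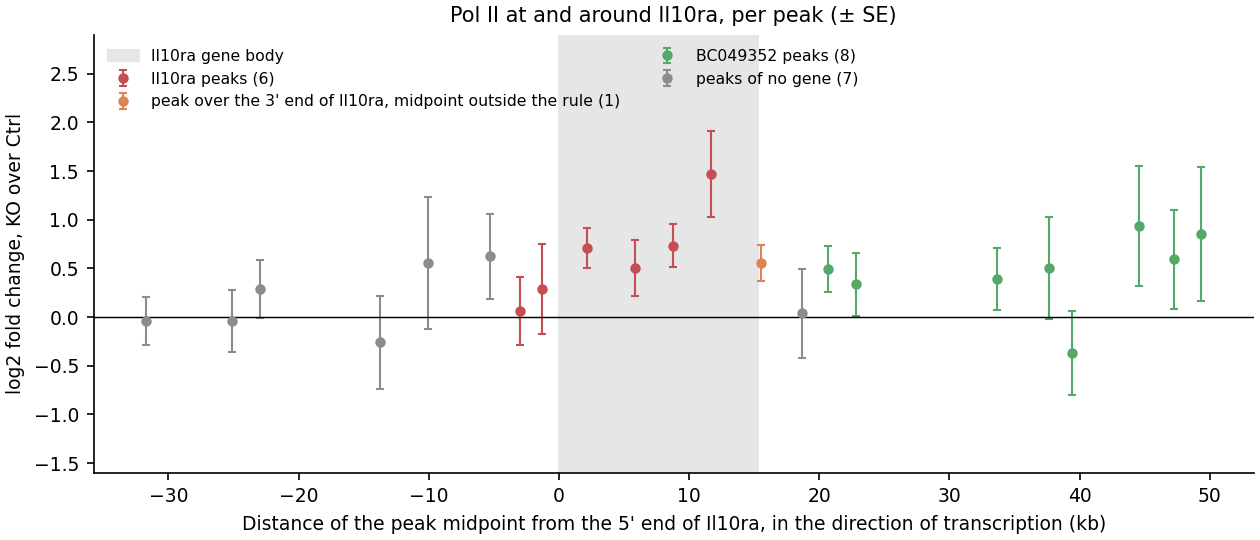
Log2 fold change of KO over Ctrl with its SE (vertical axis) for each peak against the distance of its midpoint from the 5′ end of Il10ra in kb (horizontal axis). The Il10ra peaks inside the gene and the peak over its 3′ end lie between 0.50 and 1.47, and 7 of the 8 BC049352 peaks downstream lie above 0.

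Farther out, 11 protein-coding genes lay within 200 kb of Il10ra, 7 of them with a peak. DESeq2 and edgeR each called 0 of the 7, where DESeq2 called 0.101% of all genes. Of the 7, 1, BC049352, had an unadjusted DESeq2 p-value under 0.05, as did 371 of all 12876 genes. Tmprss13, with a single peak, had 21.1 and 12.5 normalized counts in Ctrl and 28.9 and 41.5 in KO (log2 fold change 1.01 ± 0.65, SE). Jaml, an adhesion molecule gene, had 95.4 and 122 in Ctrl and 72.04 and 81.3 in KO (-0.51 ± 0.35). The groups of both were separated, in opposite directions, where 17.4% of all genes were separated upward and 16.9% downward. Their counts were low, with adjusted DESeq2 p-values of 1.00. The other 4, Mpzl3, Scn2b, Scn4b and Fxyd6, overlapped between the genotypes.

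At the gene for the second receptor chain, Ctrl and KO overlapped, and its difference from Il10ra was not tested. Il10rb (ENSMUSG00000022969.13) lies on the plus strand of chromosome 16 from 91406164 to 91425834. Its 7 peaks summed to 915 and 828 normalized counts in Ctrl and 1043 and 829 in KO. KO 2 matched the lower Ctrl library, so that the higher KO mean came from KO 1 alone. The means were 872 ± 61.5 and 936 ± 151 (SD, n = 2), a log2 fold change of 0.11 ± 0.17 (SE; 95% interval -0.22 to 0.43). The DESeq2 p-value was 0.517, and 1.00 after adjustment over all genes. Without KO 1 the log2 fold change was -0.074. All 7 peaks also belonged to Gm21970, a gene model that runs through Il10rb on the same strand, and the most upstream one to Ifnar2 as well, so none of this signal can be credited to Il10rb alone.

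By position, the Il10rb peak over the start (chr16:91405764-91407299) was the largest, with 455 and 309 normalized counts in Ctrl and 512 and 305 in KO (log2 fold change 0.10 ± 0.29, SE). In each genotype it was higher in the library numbered 1, and this spread exceeded the difference between genotypes. The 7 peaks had log2 fold changes from -0.13 to 0.49. Only the peak farthest into the gene (chr16:91414963-91415517) was separated, with 42.4 and 40.0 in Ctrl and 62.4 and 52.8 in KO (0.49 ± 0.46, DESeq2 p-value 0.285, adjusted 1.00). That is 1 of the 7 peaks, where 16.2% of all peaks were separated upward. None of the 7 had an unadjusted DESeq2 p-value under 0.05 with a higher KO value, which 0.862% of all peaks had. The 4 promoter peaks together gave 0.10 ± 0.17 and the 3 body peaks 0.17 ± 0.29 (SE), each with an adjusted p-value of 1.00.

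The gene for the ligand overlapped between the genotypes. Il10 (ENSMUSG00000016529.5) lies on the plus strand of chromosome 1 from 131019845 to 131024974. Its 2 peaks summed to 1508 and 1141 normalized counts in Ctrl and 1664 and 1350 in KO. KO 2 lay below Ctrl 1, and the libraries numbered 1 were the higher in both genotypes. The means were 1325 ± 259 and 1507 ± 222 (SD, n = 2), a log2 fold change of 0.19 ± 0.17 (SE; 95% interval -0.15 to 0.52), with a DESeq2 p-value of 0.272, adjusted 1.00. The value was 0.0028 without Ctrl 2 and 0.41 without Ctrl 1.

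Nearly all Il10 reads came from 1 peak of 6491 bp that covers the start and 5 exons (chr1:131018291-131024781), so promoter and body could not be separated. It had 1530 and 1108 normalized counts in Ctrl and 1649 and 1291 in KO (log2 fold change 0.16 ± 0.22, SE). The upstream peak, 2584 bp before the start, whose sequence is shown above, had 14.4 and 22.0 in Ctrl and 25.5 and 37.5 in KO. Both KO libraries were the higher there, with a log2 fold change of 0.79 ± 0.65 (SE), a DESeq2 p-value of 0.221 and an adjusted p-value of 1.00, on 16 to 43 reads per library. At this depth a change of that size was not detected.

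Peaks were also found around the Il10 gene. Within 50 kb of it lay 33 further peaks, 24 of them in no gene, which covered 29219 bp and summed to 4375 and 3928 normalized counts in Ctrl and 4448 and 4084 in KO. These sums exceeded those of the gene itself in every library, but the 2 peaks of the gene covered only 6760 bp. The Ctrl and KO libraries overlapped in the sums of the 24 peaks. The 11 peaks upstream had log2 fold changes from -0.38 to 0.29, with 0 separated upward and 2 downward. The 13 downstream peaks in no gene ran from -0.54 to 0.49, with 6 separated upward and 1 downward. Over all peaks, 16.2% were separated upward and 16.1% downward. None of these 24 had an unadjusted DESeq2 p-value under 0.05. The nearest gene on the downstream side, Mapkapk2, which encodes a kinase of the p38 pathway, had 3219 and 3197 in Ctrl and 2978 and 2923 in KO over 20 peaks (-0.12 ± 0.12, SE, adjusted DESeq2 p-value 1.00). Il19, Il20 and Il24, the IL-10 family genes on the other side, had no peak.

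**Figure D4:**
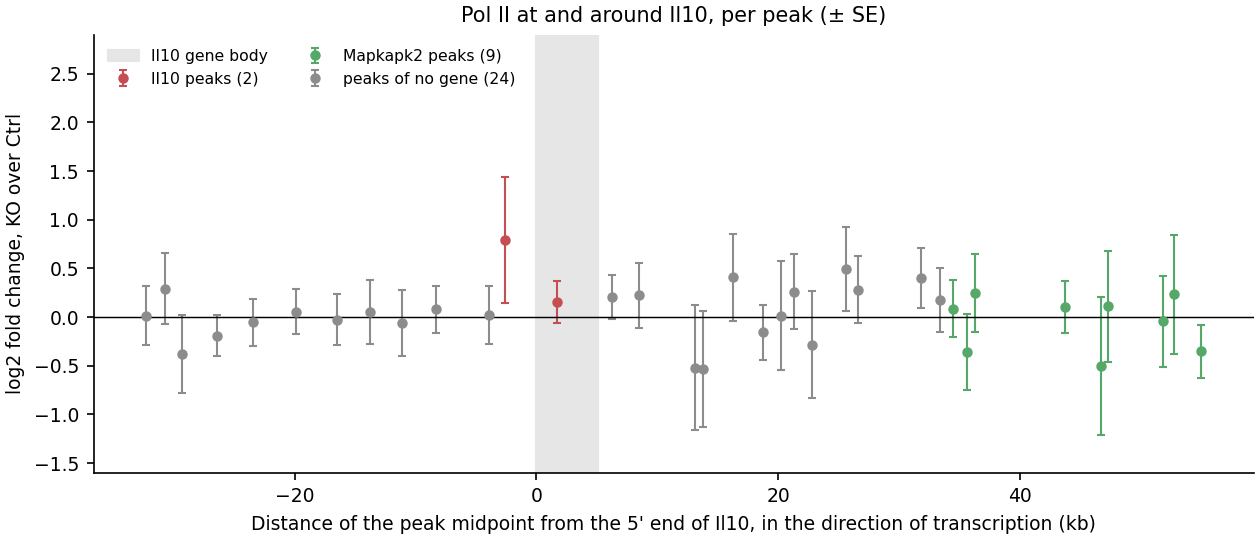
Log2 fold change of KO over Ctrl with its SE (vertical axis) for each peak against the distance of its midpoint from the 5′ end of Il10 in kb (horizontal axis). The peak over the gene lies at 0.16, the small upstream peak at 0.79 with the widest interval of the gene, and the 24 peaks in no gene scatter on both sides of 0, from -0.54 to 0.49.

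Levels of the 3 genes were compared per length, as normalized counts per kb of gene body and 3 kb upstream. Il10 had 186 and 140 counts per kb in Ctrl and 205 and 166 in KO. Il10ra had 78.5 and 68.8 in Ctrl and 125 and 113 in KO. Il10rb had 40.4 and 36.5 in Ctrl and 46.0 and 36.6 in KO. By the midpoint rule, the order Il10, Il10ra, Il10rb was the same in each of the 4 libraries. Neighbours in this order did not overlap within a genotype. That rule leaves out the Il10ra peak over its last exon (1006 and 1064 normalized counts in KO), and all Il10rb peaks also belonged to Gm21970. Before division by length, Il10ra exceeded Il10 in both KO libraries (2282 and 2061 against 1664 and 1350). In Ctrl, Il10 was the higher in Ctrl 1 (1508 against 1437) and Il10ra in Ctrl 2 (1260 against 1141). The order of Il10 and Il10ra thus rests on the division by length, and in KO 2 also on leaving out that peak. Densities under another assignment are not given here. In Ctrl, these densities exceeded those of 98.0%, 90.4% and 78.4% of the 11893 protein-coding genes with a peak, whose median was 12.1 counts per kb. Foxp3, the defining Treg gene, had 71.9 counts per kb in Ctrl, close to Il10ra.

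The rest of the pathway was described with 35 genes, chosen with earlier results of these data known, of which 28 had a peak. Among the 25 besides the 3 members, DESeq2 called 0 higher and 0 lower in KO (0 also at an unadjusted p-value under 0.05, and 0 called by edgeR), where 0.0155% of all genes were called higher. Both KO libraries lay above both Ctrl libraries in 5 of the 25 (Stat3, Socs3, Prdm1, Batf and Ahr), against 17.4% of all genes, and below in 1 (Il21r), against 16.9%. The median log2 fold change was 0.04 in the 25 genes and -0.0042 over all genes.

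Stat3, the main transducer of IL-10, had 5116 and 5140 normalized counts in Ctrl and 5415 and 5614 in KO (log2 fold change 0.10 ± 0.11, SE). The kinase genes Jak1 (0.01 ± 0.11) and Tyk2 (0.12 ± 0.18) overlapped between the genotypes. Socs3, the feedback inhibitor that STAT3 induces, had 2090 and 2162 in Ctrl and 2602 and 2342 in KO (0.22 ± 0.13, unadjusted DESeq2 p-value 0.0873). Its groups were separated, as were those of Stat3, but neither passed adjustment over all genes (adjusted p-values 1.00). The other targets and inhibitors, Socs1, Bcl3, Etv3, Sbno2, Il4ra and Zfp36, had log2 fold changes from -0.16 to 0.04 and overlapped.

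Of the class II cytokine receptors besides the 2 IL-10 chains, 6 had a peak: Il20ra, Il20rb, Ifnar1, Ifnar2, Ifngr1 and Ifngr2. Their log2 fold changes ran from -0.05 to 0.25 and the groups overlapped in each. Il22ra1, Il22ra2, Ifnlr1 and the ligand Il22 had no peak. Among transcription factors known to act on Il10, Ahr had 267 and 270 normalized counts in Ctrl and 294 and 353 in KO (0.26 ± 0.22), and Irf4 had 1982 and 1619 in Ctrl and 2265 and 1949 in KO (0.23 ± 0.15). Ahr was separated upward with Prdm1 (0.14 ± 0.15) and Batf (0.11 ± 0.13), while Irf4, Nfil3 (0.04 ± 0.16) and Maf (-0.11 ± 0.19) overlapped. The 3 receptors of Il10-inducing cytokines lay below 0, from -0.25 ± 0.16 for Il6st to -0.06 ± 0.18 for Il27ra (SE). None of these genes passed the adjusted DESeq2 threshold.

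**Figure D5:**
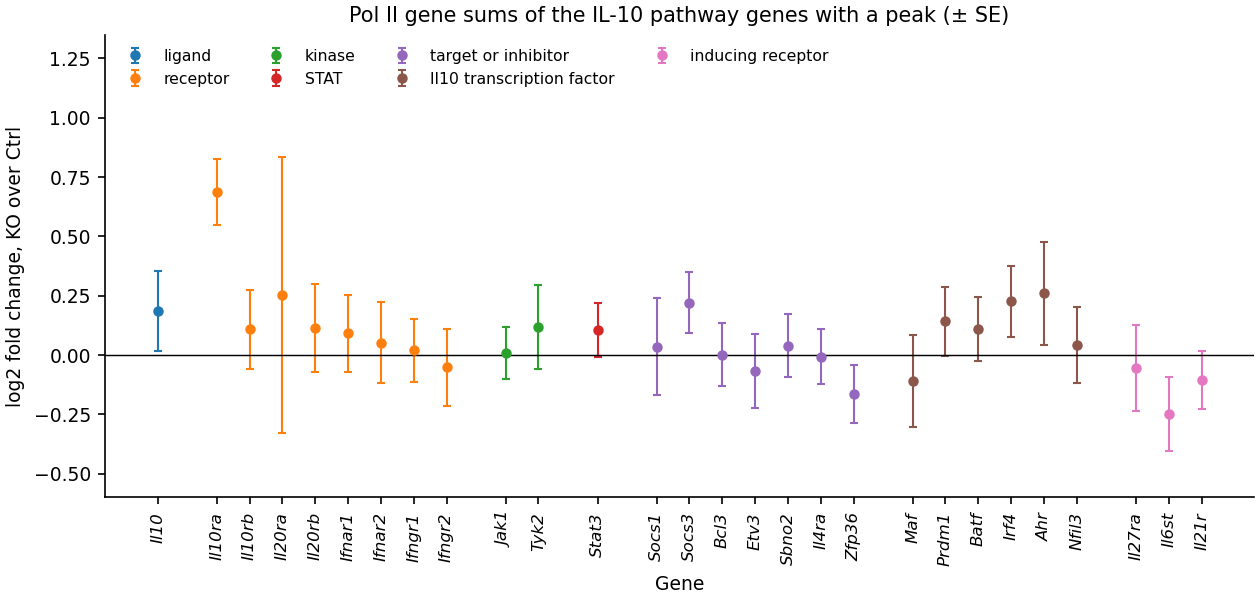
Log2 fold change of KO over Ctrl with its SE (vertical axis) of the Pol II gene sum for the 28 IL-10 pathway genes with a peak (horizontal axis), coloured by role. Il10ra, which was selected on this difference, stands at 0.69, above the other 27, which lie between -0.25 and 0.26.

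The genes whose pattern over the 4 libraries was most like that of Il10ra were ranked by Euclidean distance between log2(normalized count + 1) values centred on the mean of each gene, among 11793 genes with a mean of at least 50 normalized counts. The nearest of these were Atrnl1, at a distance of 0.072, Chn2 (0.086), Map3k9 (0.095), Bricd5 (0.14) and Kctd12 (0.14), where the median gene lay at 0.757. All 5 held fewer reads than Il10ra: Chn2, which encodes a GTPase-activating protein for Rac, had 132 and 116 normalized counts in Ctrl and 202 and 177 in KO, with an adjusted DESeq2 p-value of 1.00. Likeness over 4 libraries is a description of their shape only.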

How the data were processed

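Pol II CUT&Tag counts of 2 Ctrl and 2 KO libraries of splenic Treg cells were analysed. The authors mapped reads to mm10 with Bowtie2, kept uniquely mapped reads, removed duplicates, used MACS2 with IgG as background (p-value cutoff 0.01) for peak calling and bedtools for merging. The deposited table holds the authors' raw, unnormalized read counts per merged peak, and tool versions are not given in the sources used here. Each of its 4 value columns was matched to a library, leaving 0 unmapped. As peaks were called on the libraries compared, and merged peaks run from 222 to 38145 bp, reads were compared between libraries within a peak.

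Peaks were assigned with GENCODE vM21 (GRCm38) by midpoint, to protein-coding genes first and otherwise to long non-coding genes. A peak could belong to several genes. Counts per peak, per gene, and per gene over promoter or body peaks were compared with DESeq2 1.42.0 in R 4.3.3 (two-sided Wald test, a model of genotype alone, size factors by the median of ratios, Benjamini-Hochberg correction over all features). DESeq2 was the tool of the study, and edgeR 4.0.16 was an alternative. Each of these tables has its own size factors, so sums of the parts of a gene differ slightly from its total. The gene test was also run on simulated gene sums that took their means and spread from these data, and the outcome is not given here. Depth ranged from 4489646 to 13351007 counts, with a median of 39 to 108 counts per peak, so precision was lowest in KO 2 and in small peaks.

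The members, the pathway and marker lists, and the naming rule (the members with every peak, list genes with a peak, protein-coding genes within 200 kb, and the 5 genes most like Il10ra) were chosen with earlier results of these data known. Cyp46a1 and Setd2 were added beyond this rule, and some genes that the rule would name are not reported here. Other settings were total-count scaling, TMM size factors, a mean of at least 10 counts, a replicate block, assignment by any overlap, only peaks of 1 gene, a 1 kb promoter window, and leaving out each library. Sequences were read from GRCm38.p6.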

Additional observations from a re-analysis of the deposited data

How the results depend on the processing

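The Il10ra log2 fold change lay between 0.60 and 0.79 over 11 alternatives, its promoter value between 0.57 and 0.76 and its body value between 0.61 and 0.86. That of Il10 ran from 0.0028 to 0.41 and that of Il10rb from -0.074, without KO 1, to 0.26. With 1 library left out, its group keeps a lone library that is assumed to vary like the other group. Counts of calls depended far more on the setting than fold changes did, and the cause was not tested. Of the genes, 13 were called by DESeq2, 0 by edgeR (630 at an unadjusted p under 0.05), 7 with peaks of 1 gene only, 114 with the replicate number as a block, and 0 to 3 with 1 library left out. Of the pathway genes, DESeq2 called 1, Il10ra, which was selected on this difference. The count was 0 by edgeR, 2 with the block, which added Zfp36 as lower in KO, and 0 to 0 with 1 library left out. Of the peaks, 0 were called by DESeq2 (864 at an unadjusted p under 0.05), 27 by edgeR, 25 with the block and 0 to 5 with 1 library left out. Same-numbered libraries deviated together (r = 0.463 across 11795 genes), but with only 2 pairs and no shared batch in the labels the samples share only a number. With the block the log2 fold change was 0.69 for Il10ra, 0.10 for Il10rb and 0.19 for Il10. Of the marker genes, the block called Ctla4 (adjusted DESeq2 p-value 0.0218), which was higher in KO. No promoter value for Il10ra exists with a 1 kb window, and none for Il10rb with peaks of 1 gene only.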

Other observations

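Around Il10rb, 9 protein-coding genes lay within 200 kb, 7 of them with a peak. DESeq2 and edgeR each called 0 of the 7, where DESeq2 called 0.101% of all genes. Of the 7, 1 had an unadjusted DESeq2 p-value under 0.05, as did 371 of all 12876 genes. Tmem50b, which encodes a membrane protein, had 472 and 472 normalized counts in Ctrl and 599 and 618 in KO. The groups were separated, with a log2 fold change of 0.36 ± 0.17 (SE), a DESeq2 p-value of 0.0339 and an adjusted p-value of 1.00. Over all genes, 17.4% were separated upward. Ctrl libraries held 3442 and 2716 counts over Ifnar1, a chain of the type I interferon receptor, and KO libraries 3744 and 2812 (0.09 ± 0.16). For comparison, Ifngr2, a chain of the interferon-γ receptor, showed 925 and 1105 against 902 and 1059 (-0.05 ± 0.16). Both overlapped between the genotypes.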
